A study of Drosophila melanogaster with 7 samples.

Results

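The calls described here are the origin calls of a BrdU gradient library that share a DNA molecule with at least 1 other origin call. They were selected on the calls themselves: a call was a member where its sequenced molecule held 2 or more origin calls of that library. The selection kept 779 of 1529 origin calls, which is 50.9% (95% Wilson interval 48.4 to 53.4%), on 278 of 1028 molecules, which is 27.0% (24.4 to 29.8%). The other 750 calls were alone on their molecule. Below, members are called clustered calls and the 750 others calls alone.

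A replication origin is a site from which a pair of forks moves apart, and most origins of a metazoan chromosome are used in only some of the cells of a population. Initiation sites can lie in groups, so that several fire on 1 chromosome fibre in the same S phase, a pattern long described from fibre autoradiography and DNA combing. A population average does not show this, whereas a long sequenced molecule records the events of a single chromosome. When the concentration of BrdU, a thymidine analogue, rises with time, DNA made later carries more of it, so the direction of synthesis can be read from the slope along a molecule.

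All libraries were made from S2 cells, an established Drosophila melanogaster embryonic line, and sequenced as genomic DNA on Oxford Nanopore instruments. For the gradient library, BrdU was raised in steps of 0.5 µM, each of 2.5 min, to 12 µM over 1 hr, and the cells stayed at 12 µM for a further 30 min. For the other libraries used here the cells took up 10 µM EdU, next 10 µM BrdU, and last 50 µM thymidine for 20 min. They were an untreated control and replicates 1 and 2 with 7 min of EdU and 15 min of BrdU, and replicates 3 and 4 with 3 min and 6 min. A library with 1 mM HU was not used here. Each library pooled flasks labelled together, and whether the replicates came from separate cultures is not stated, so p-values measure the spread between these libraries.

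The gradient library had no replicate, so clustered calls and calls alone are set side by side without a test. Intervals on shares cover counting error only, and calls of 1 molecule share that molecule. The molecule lengths of this library were not analysed here. A molecule's length bounds both the number of calls it can hold and the distances between them, and its part in the values below was not tested. The sources used here do not say how origins were called from the gradient. The 5 pulse libraries held 1836 to 12745 fork calls and 97 to 683 origin calls on the chromosome arms. The control was sequenced on a MinION and the others, the gradient library included, on a PromethION. With 1 gradient library, its labelling scheme and the library itself cannot be told apart.

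Most clustered molecules held few calls. At the selection threshold, 156 molecules held 2 calls and lay just inside, while 750 held 1 call and lay just outside. A further 68 molecules held 3 calls, 27 held 4, 13 held 5, 8 held 6 and 6 held 7. The molecules with 3 or more calls were thus 122 of 278. All but 1 of the 278 molecules mapped to a chromosome arm, and these 277 molecules carried 776 calls. The remaining molecule mapped to the mitochondrial genome, which is replicated apart from the nuclear chromosomes, and held 3 of the 10 mitochondrial calls. From first to last midpoint, the arm molecules spanned 2.01 to 132 kb, with a median of 20.1 kb. The median span was 11.9 kb for molecules with 2 calls, 25.2 kb with 3, 24.3 kb with 4, 38.3 kb with 5, 42.7 kb with 6 and 61.8 kb with 7.

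Neighbouring midpoints on a molecule were mostly within 20 kb of each other. The 501 distances ran from 1.68 to 82.8 kb, with a median of 9.48 kb (95% interval of the median 8.37 to 10.2 kb) and quartiles of 5.37 and 17.0 kb. Of these, 108 (21.6%) were under 5 kb, 268 (53.5%) under 10 kb and 402 (80.2%) under 20 kb, and 17 were over 50 kb. Measured from the end of a call to the start of the next, the median gap was 6.52 kb and the smallest 1.58 kb. So no clustered calls touched each other.

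Median distances were shorter on molecules with 4 to 7 calls than on those with 2 or 3. The median distance was 11.9 kb on molecules with 2 calls, 10.5 kb with 3, 7.33 kb with 4, 7.34 kb with 5, 7.74 kb with 6 and 7.68 kb with 7. A molecule of a given length can hold more calls only where they lie closer, so the order of these medians is bound up with the selection. Spacing was not regular. On the 122 molecules with 3 or more calls, the longest distance was a median of 2.20 times the shortest, and this ratio ran from 1.02 to 17.8. It was under 2 on 55 molecules and over 5 on 26.

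**Figure D1:**
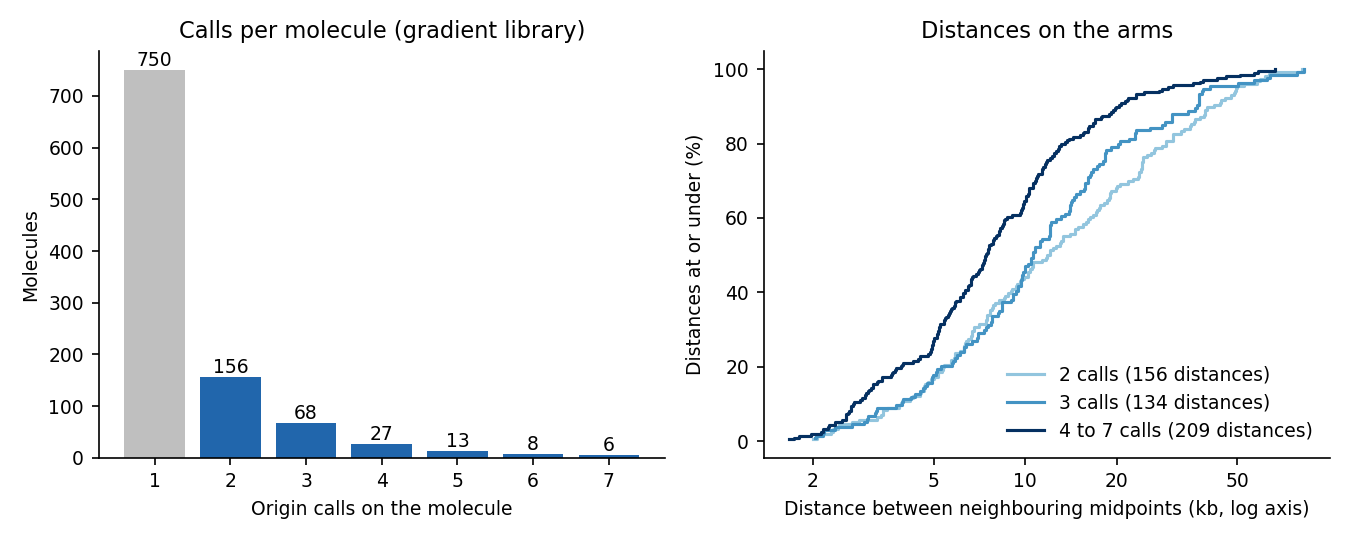
Left, number of gradient molecules (vertical axis) by origin calls on the molecule, with molecules of a single call in grey. Right, cumulative share of distances between neighbouring midpoints on the arms (kb, log axis) for molecules with 2, 3 and 4 to 7 calls. The curve for 4 to 7 calls lies to the left of the others over most of its range, towards shorter distances.

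Sharing a molecule was much rarer among pulse origins. Of 1482 pulse molecules with an origin, 29 held 2 or more, which is 1.96%. The control had 4.30% of such molecules, replicates 1 and 2 had 1.68% and 2.25%, replicate 3 had 1.87%, and replicate 4 had 0 of 138, which allows a share of up to 2.17%. All 5 libraries therefore lay below the 27.0% of the gradient library. No pulse molecule held more than 3 origins, and their 30 distances ran from 10.8 to 89.1 kb, with a median of 37.5 kb. The pulse molecules with 2 or more origins had a median length of 105 kb, against 73.8 kb for those with 1. The labelling scheme differed between the gradient and the pulses, and the part of molecule length and of calling was not tested.

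Clustered calls were narrower than calls alone. Widths fell into 2 classes with nothing between them: among all gradient calls, 487 were 28 bp wide or less and 1042 were 632 bp or more. A limit of 100 bp, chosen after the widths were seen, separates the narrow from the wide class. Of the clustered calls, 308 were narrow, or 39.5% (36.2 to 43.0%), against 179 of the calls alone, or 23.9% (21.0 to 27.0%). The median width was 1.11 kb (1.04 to 1.22 kb) for clustered calls and 4.56 kb (3.74 to 5.57 kb) for calls alone.

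The difference in width was also seen within the wide class. Wide clustered calls had a median of 3.12 kb (2.52 to 3.41 kb), and wide calls alone one of 7.92 kb. Calls over 20 kb made up 5.26% of clustered calls (41) and 18.5% of calls alone (139). The widest clustered call measured 103 kb. A wide call takes up a stretch of its molecule that no other call can occupy, and the part of this in the difference was not tested.

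**Figure D2:**
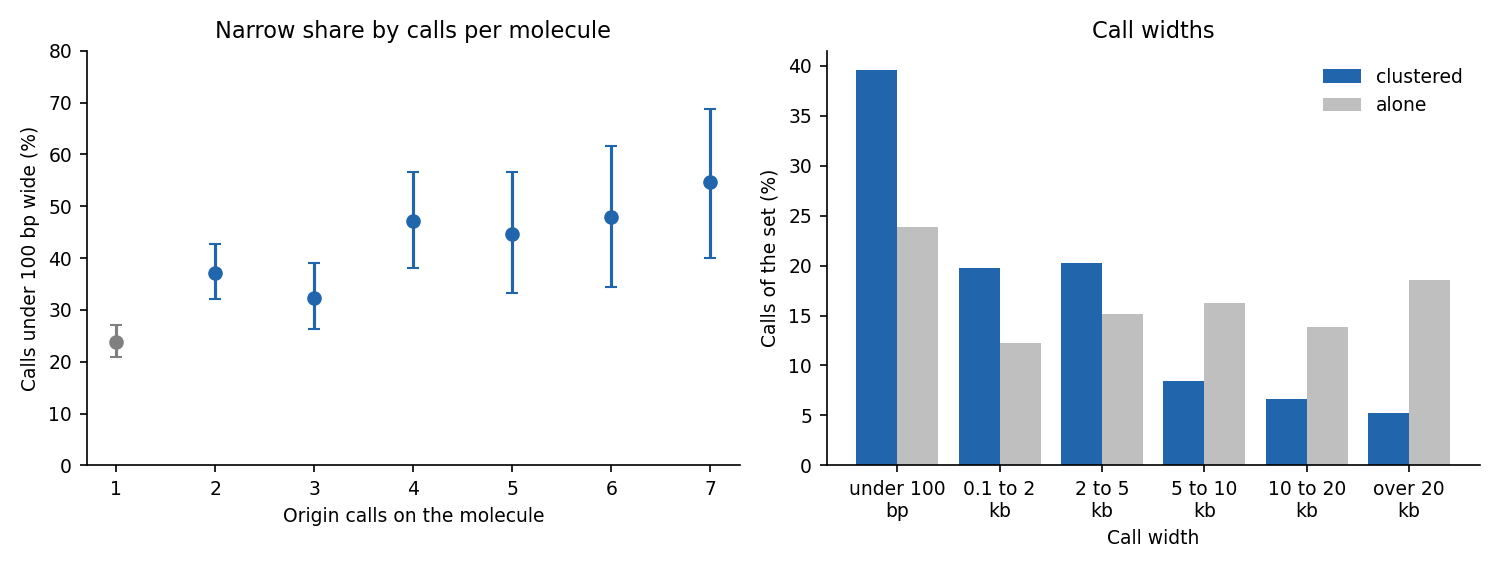
Left, share of calls under 100 bp wide (percent, with 95% Wilson interval) by the number of calls on the molecule, with calls alone in grey. Right, share of clustered calls (blue) and of calls alone (grey) in each width class, where clustered calls exceed calls alone in the 3 classes up to 5 kb and fall below them in the 3 wider ones.

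The narrow share was 37.2% on molecules with 2 calls, 32.4% with 3, 47.2% with 4, 44.6% with 5, 47.9% with 6 and 54.8% with 7. The interval for 7 calls, 39.9 to 68.8%, overlaps those of all the other classes of clustered molecules except 3 calls. Outer and inner calls of a molecule had like widths. On molecules with 3 or more calls, the first and last calls had a median width of 1.10 kb and a narrow share of 41.0%, and the inner calls 1.04 kb and 41.3%.

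Narrow and wide calls occurred side by side. Of the 278 molecules, 159 (57.2%) carried both classes, 90 only wide calls and 29 only narrow ones. Of the 501 neighbouring pairs, 226 (45.1%) joined a narrow and a wide call, 188 (37.5%) were both wide and 87 (17.4%) both narrow. The median midpoint distance was 5.15 kb between narrow neighbours, 7.78 kb in mixed pairs and 14.0 kb between wide neighbours. Gaps from end to start kept that order, at 5.14, 5.81 and 8.84 kb, so the order was also seen without the calls' own widths.

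The 6 molecules with 7 calls show how varied the arrangements were. Coordinates are those of the dm6 build, from the start of the first call to the end of the last. The molecule with the longest span lay on 3L at 11786920 to 11880319, with 89.2 kb from first to last midpoint and distances of 2.57 to 37.8 kb. Its calls lay at or next to twy, CycA, CG43064, CG12521, CG44837 and Sprn. CycA encodes the mitotic cyclin A. The midpoint in CycA belonged to a narrow call less than 1 kb from where the gene starts or ends.

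The second lay on 2R at 3195161 to 3275191, in a gene-poor stretch, and spanned 79.6 kb from first to last midpoint. Its nearest protein-coding gene was dpr21, of an immunoglobulin-domain family of cell surface proteins. All 7 midpoints were intergenic, from 4.57 to 84.2 kb away from that gene. A pair of neighbouring narrow calls of this molecule, 2.87 kb apart, each had an origin of 1 pulse library within 5 kb.

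The third lay on 2R at 6230434 to 6297443 and spanned 64.8 kb, with 4 narrow and 3 wide calls. Its first calls lay in bin3, which encodes an RNA methyltransferase, and in Pld, the phospholipase D gene, and its last 3 were intergenic, up to 42.2 kb beyond Pld. The fourth lay on 2L at 21086223 to 21145535 and was the most evenly spaced of these 6, with distances between 5.03 and 13.1 kb. It ran from ppk13, of a sodium channel family, through CG46307, which overlaps Nhe2 and held 4 midpoints, to del, whose product acts in piRNA cluster transcription. The fifth lay on 2R at 21518154 to 21556750 and spanned 37.9 kb, and 5 of its midpoints fell inside the span of Egfr, the epidermal growth factor receptor gene. The sixth, chosen for its 7 calls after the values were seen, spanned only 23.0 kb on 2L, from muc to the gustatory receptor gene Gr28a, with no distance over 6.09 kb.

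**Figure D3:**
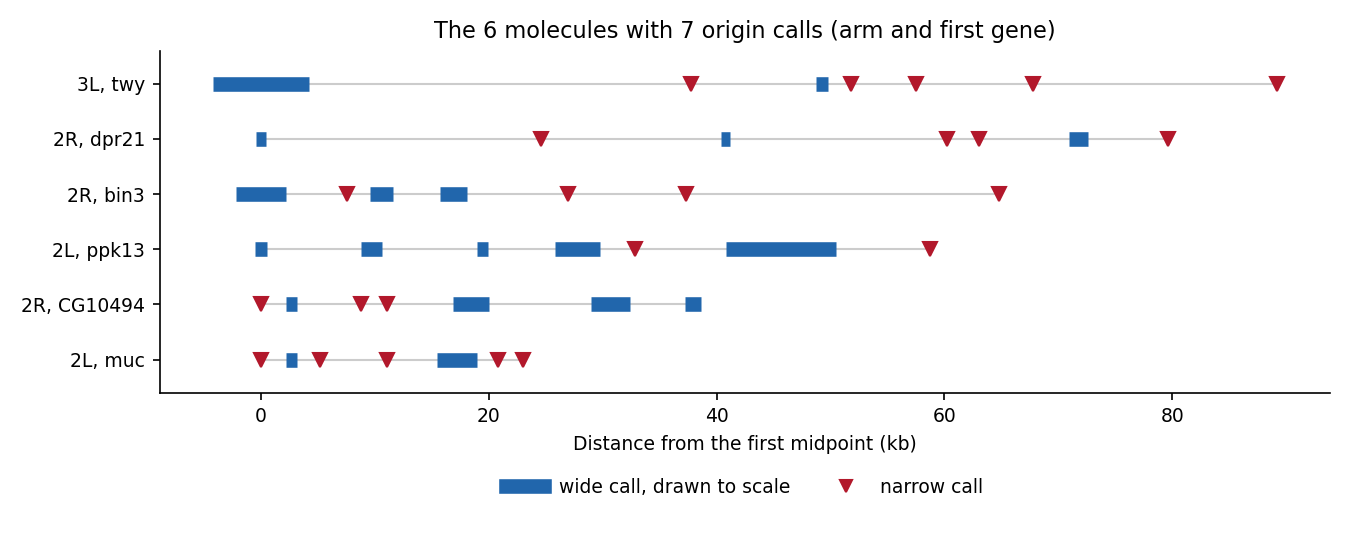
Maps of the 6 molecules with 7 origin calls, each drawn from its first midpoint (horizontal axis, kb) and named by its arm and first gene. Blue bars are wide calls to scale and red triangles narrow calls, and spans run from 23.0 kb at the bottom to 89.2 kb at the top.

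Clustered calls were found on every arm. They made up 46.1% of the gradient calls of 2L (147 of 319, interval 40.7 to 51.6%), 56.6% of 2R (180 of 318, 51.1 to 61.9%), 50.8% of 3L (156 of 307), 51.7% of 3R (196 of 379) and 49.2% of X (93 of 189). On chromosome 4, 4 of 7 calls were clustered, on 2 molecules. The intervals of 2L and 2R overlapped by less than 1 point at their ends, but they count calls of 1 molecule as separate. By molecule, 23.9% (18.8 to 29.9%) of those on 2L held 2 or more calls. On 2R it was 30.7% (24.7 to 37.4%), and these intervals overlapped more widely. The median distance was 12.7 kb on 2L, 10.6 kb on 3L, 9.94 kb on 3R, 8.18 kb on X and 7.83 kb on 2R. Among these 5 large arms, 2R had the largest clustered share and the shortest median distance, and 2L the smallest share and the longest. Clustered calls per Mb ran from 5.57 to 7.13 on the large autosomal arms and were 3.95 on X. X had fewer gradient calls of both kinds, and coverage of the gradient library was not analysed here.

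Pooled over the large arms, clustered calls were most frequent next to the centromere, but this did not hold on every arm. With each large arm cut into 10 equal segments, the segment next to the centromere, which includes pericentromeric heterochromatin, held 14.6% of the clustered calls and 12.7% of the calls alone. The fork calls of the pulse libraries, as a measure of where labelled replicating DNA was sequenced, had 8.74% ± 1.11 (SD, n = 5) of their number there, with a range of 7.81 to 10.2%. Both kinds of gradient call therefore exceeded the fork share of every pulse library there, which sets origin calls beside fork calls. Of the pulse origins on the arms, 86 of 97 in the control lay in the other segments. These counts were 441 of 485 and 624 of 683 in replicates 1 and 2, and 92 of 109 and 121 of 138 in replicates 3 and 4. The totals include chromosome 4, which was not cut into segments. A difference from pulse origins in this segment was not tested. Of the gradient calls in a segment, 42.0 to 57.5% were clustered. In the segment next to the centromere, 113 clustered calls lay on 39 molecules with a median distance of 9.52 kb, against 9.61 kb in the other segments. Its narrow share was 38.1%, against 39.6%. Arm by arm, this segment held the most clustered calls on 3L (25) and on 3R (30, on 8 molecules). On 2L (24), 2R (21) and X (13) another segment held more, with up to 26, 26 and 25. Pooled by molecule, the lead was small, with 39 molecules there and 36 in segment 5 counted from the centromere.

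**Figure D4:**
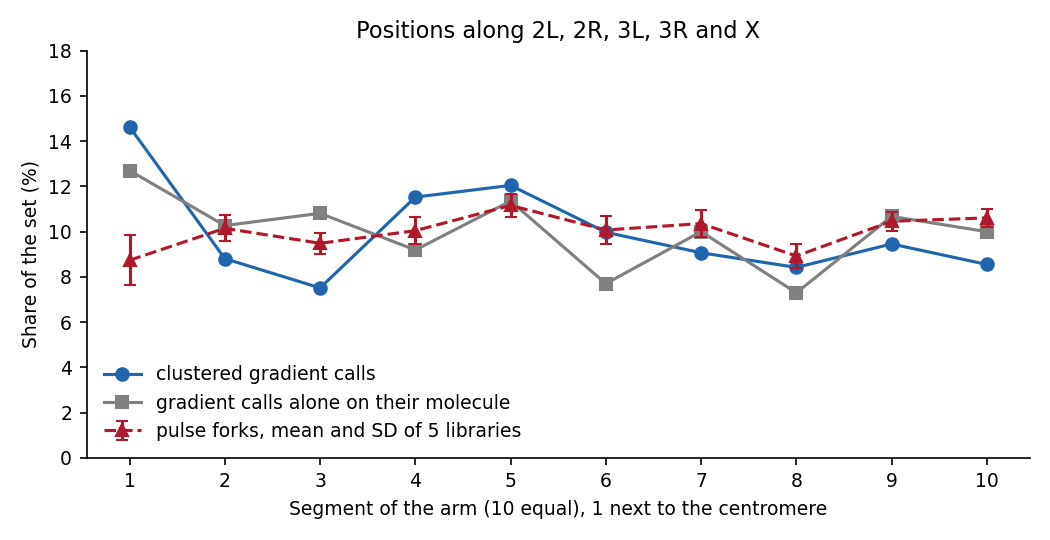
Share of each set (percent) by segment of the arm, 10 of equal length counted from the centromere, over 2L, 2R, 3L, 3R and X. Circles are clustered calls, squares calls alone, and triangles the mean of the pulse libraries' forks with the SD of 5 libraries. In the segment next to the centromere both gradient sets, at 14.6% and 12.7%, lie above the forks.

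Clustered calls lay near gene ends at a share like that of calls alone and below that of every pulse library. A protein-coding gene started or ended no more than 1 kb from the midpoint for 194 of 776 clustered calls, or 25.0% (22.1 to 28.2%), and for 22.5% (19.6 to 25.6%) of calls alone. In the pulse libraries the share was 43.7% ± 3.39 (SD, n = 5), with a range of 39.1 to 48.5%. The clustered value lay below all 5 libraries, a comparison of 1 library with 5 in which no exact permutation p can be under 0.167. Outside the segment next to the centromere the values were 27.5% for clustered calls, 25.1% for calls alone and 47.2% ± 4.75 (SD, n = 5) for pulse origins. Intergenic midpoints made up 33.8% of clustered calls, 37.8% of calls alone and 35.2% ± 2.52 (SD, n = 5) of pulse origins. The shares of arm length within 1 kb of a gene end and between genes are not given here. Whether these values differ from plain coverage of the arms therefore cannot be read from them. The sources used here do not say how precisely a midpoint marks the initiation site in the gradient library, and the part of this in these shares was not tested.

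Long genes held many clustered calls. Of the 776 midpoints, 209 (26.9%, interval 23.9 to 30.2%) lay inside a protein-coding gene over 50 kb long, against 19.7% (17.0 to 22.7%) of calls alone and 14.0% ± 3.49 (SD, n = 5) of pulse origins, range 10.4 to 17.4%. Such genes covered 22.0% of the arm length. The clustered value lay above all 5 libraries, again with 1 library on its side. Calls of 1 molecule often shared a gene, and with each molecule weighted equally the clustered share was 25.5%. Outside the segment next to the centromere, clustered calls stood at 24.3%, calls alone at 18.4% and pulse origins at 11.4% ± 2.34 (SD, n = 5). On 79 of 277 molecules all midpoints fell inside a single protein-coding gene, and 34 of these molecules held 3 or more calls.

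Across the genome, 477 of 13922 protein-coding genes, or 3.43%, had a clustered midpoint inside them or within 1 kb. This share rose with gene length, from 2.29% of genes of up to 5 kb to 4.30% at 5 to 20 kb, 8.37% at 20 to 50 kb, 20.5% at 50 to 100 kb and 32.5% above 100 kb. A longer gene offers more sequence for a midpoint to fall in. The list of genes over 50 kb had 73 of 307 members hit (23.8%), with 214 calls.

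Myo81F, an unconventional myosin gene that spans 1966 kb of pericentromeric 3R (567076 to 2532932), held 17 clustered calls on 4 molecules. On 1 of them, 6 calls lay between 1676802 and 1718849 at distances of 1.74 to 11.3 kb, and on another 6 calls lay at distances of 3.17 to 12.4 kb. Pzl, a gene of the Piezo family of mechanosensitive channels on the same arm (2554162 to 3263582), held 13 calls on 4 molecules, which included a molecule with 6 calls. Ubx, the Hox gene of the third thoracic segment (3R, 16656623 to 16734426), held 7 calls on 3 molecules, with 2, 2 and 3 of its midpoints on each. pros, which encodes a homeodomain factor of neural differentiation (3R, 11328480 to 11407627), also held 7 calls on 3 molecules. Per 100 kb of gene this was 9.0 calls in Ubx and 8.84 in pros, against 1.83 in Pzl and 0.865 in Myo81F. Of these 4 genes, the giant genes of heterochromatin held more calls, and Ubx and pros more calls for their length. Arm 3R as a whole held 6.11 clustered calls per Mb. The 4 genes were those with clustered calls on most molecules, so their values are bound up with that choice. Genes hit on 2 molecules had higher values per 100 kb, such as 14.4 in grh and 12.2 in Mur89F, or lower ones, such as 2.74 in Ten-a.

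The other lists had few members hit, at shares on both sides of the 3.43% of all genes. Ubx was the only one of 8 Hox genes hit (12.5%). Of 115 histone genes, 7 (6.09%) were hit, all by 2 midpoints of 1 molecule on 2L, where the histone genes lie in near-identical repeats and the placement of a call within the array is uncertain. The genes named there by the rule were His2A:CG31618, His2B:CG17949, His2B:CG33904 and His3:CG31613. RpS19b, a ribosomal protein gene, was the only one of 88 of its kind (1.14%). None of 23 replication factor genes, 10 S2 and hemocyte genes, 8 neuronal genes, 19 heat shock genes, 9 housekeeping genes or 12 Polycomb and trithorax genes was hit. With 8 to 23 members, a single hit would have put any of these lists above the 3.43% of all genes.

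Few clustered calls had a call of another molecule within 5 kb. A match needs a second molecule that covers the place, and coverage of the gradient library was not analysed here. How often a site was used again therefore cannot be read from these shares. Another clustered molecule had a call within 5 kb of 71 of the 776 clustered calls (9.15%), and any other gradient molecule had one within 5 kb of 123 (15.9%, interval 13.5 to 18.6%). For calls alone the latter share was 12.0% (9.84 to 14.5%). Such places formed 26 loci, each with exactly 2 molecules. In order of position the first 10 lay at CG42682, beat-Ic, CG10283, CG42238, psq, CG43187 with Sema2b, grh, CG33225, Tet and CG44837.

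The closest match among these 10 was at CG43187 on 2R, where midpoints of the 2 molecules lay 0.0835 kb apart, next to the semaphorin gene Sema2b. At CG10283 on 2L they lay 0.651 kb apart. At psq, which encodes a BTB-domain DNA-binding protein, the closest midpoints were 1.20 kb apart. At grh, the gene of the epidermal transcription factor Grainy head, 1 molecule carried 4 calls and the other 2, all 6 inside the gene. Only the grh locus among these 10 had a pulse origin, from 1 library, within 5 kb of a call.

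Molecules that covered the same stretch could be compared directly. There were 26 pairs of clustered molecules with overlapping spans, from 50 molecules, with a median overlap of 11.1 kb and a largest overlap of 45.3 kb. Of 42 calls of the first molecule that lay inside the overlap, 6 had a call of the second within 1 kb, 14 within 2 kb and 34 within 5 kb. This counts 1 side only, and calls of the second molecule without a match are left out. In some pairs the first molecule had no call inside the overlap, and 7 of the 26 pairs had no match within 5 kb. Since neighbouring calls were often under 10 kb apart on a single molecule, a match within 5 kb is easily met in these stretches.

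The pulse libraries, which the selection did not use, gave independent measures at the same positions. Origins of each pulse library were counted within 5 kb of clustered calls and of calls alone, and the difference was tested over the 5 libraries with an exact two-sided sign-flip test, whose smallest p is 0.063. Adjusted p-values are Benjamini-Hochberg values over 5 measures, so this design cannot pass 0.05 for any of them.

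The difference in pulse origins was smaller than the spread between libraries. In the control 0.773% of clustered calls and 0.673% of calls alone had a pulse origin within 5 kb. In the 7 and 15 min replicate 1 the shares were 5.15% and 3.63%, and in replicate 2 they were 3.35% and 5.11%. In the 3 and 6 min replicate 3 they were 0.902% and 0.538%, and in replicate 4 they were 0.515% and 1.21%. The clustered share was thus higher in 3 libraries and lower in 2. The mean difference, clustered minus alone, was -0.0950 ± 1.23 percentage points (SD, n = 5, exact p = 0.875, adjusted p = 0.875).

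Over all 5 libraries, 76 of 776 clustered calls (9.79%) and 77 of 743 calls alone (10.4%) had at least 1 pulse origin within 5 kb. For the clustered calls, 69 had origins of 1 library and 7 of 2 libraries. These 7 lay at or nearest to CG10874, CG5853, GLaz, CG46443 (2 calls of 1 molecule), CG7386 and Ubx. GLaz encodes a lipocalin. The call in Ubx was narrow, at 16683566, and 6.65 kb from the other call of its molecule.

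Terminations, where converging forks meet, were counted in the same way. The share of calls with one was 2.96% ± 2.34 (SD, n = 5) for clustered calls and 2.72% ± 2.95 (SD, n = 5) for calls alone. The difference of 0.245 ± 0.834 percentage points was positive in 3 of 5 libraries (exact p = 0.625, adjusted p = 0.875). Neither this difference nor that of origins kept its sign under all alternative settings.

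Fork direction did not differ beyond the spread between libraries. Forks that leave an origin move right on its right side and left on its left side, so the share of rightward forks in the 20 kb to the right minus that in the 20 kb to the left would be positive at a frequently used origin. This divergence was -0.175 ± 3.56 percentage points around clustered calls and 0.0460 ± 2.80 around calls alone (SD, n = 5). The difference was -0.221 ± 2.07 points and was positive in 3 of 5 libraries (exact p = 0.875, adjusted p = 0.875). Values near 0 mean that pulse forks on the right and left of a gradient call ran rightward about equally often. A fork between 2 calls counted on both sides, which draws the divergence towards 0, and more so for clustered calls. In the 7 and 15 min replicate 1, 1334 forks near clustered calls gave 886 right and 810 left counts. Near calls alone, 2113 forks gave 1149 and 1115. With only the outer flanks of each molecule, which leaves out forks between its own calls, the difference was -2.18 ± 3.13 points (SD, n = 5). The exact sign-flip p was 0.125, unadjusted, and this alternative was chosen after seeing the data. The part of forks that lie between calls of different molecules was not tested. The pulse forks come from other cells than the gradient calls.

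**Figure D5:**
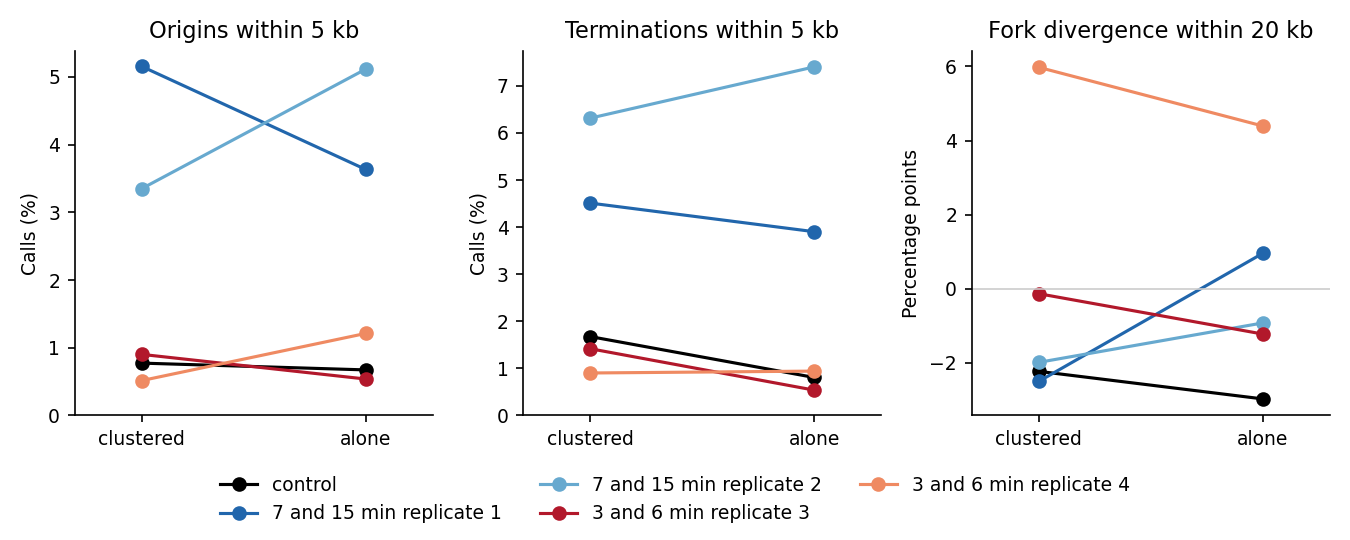
Percent of calls with a pulse origin (left) or termination (middle) within 5 kb, and fork divergence within 20 kb in percentage points (right), at clustered calls and calls alone. Each line is 1 pulse library, and in every panel some lines rise and others fall.

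Fork length near the calls differed by no more than the spread between libraries. The median track length averaged 12.1 kb within 20 kb of clustered calls and 11.8 kb within 20 kb of calls alone. The log2 difference was 0.04 ± 0.04 (SD, n = 5) and was positive in 4 of 5 libraries (exact p = 0.188, adjusted p = 0.469). Fork number per call was 0.989 near clustered calls and 1.71 near calls alone, a log2 ratio of -0.82 ± 0.07 (SD, n = 5) that was negative in 5 of 5 libraries (exact p = 0.063, adjusted p = 0.312). Much of this follows from the count itself, because the 20 kb flanks of clustered neighbours overlap and each fork counts once. Per Mb of flank covered, 47.6 forks lay near clustered calls and 49.1 near calls alone, a log2 ratio of -0.07 ± 0.07 (SD, n = 5, exact p = 0.125, unadjusted) that was negative in 4 of 5 libraries.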

How the data were processed

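Coordinates are on dm6, which the submitters' processing notes name for all libraries, with minimap2 2.24 and SAMtools 1.10 for the pulse libraries. Per the file headers, pulse forks, origins and terminations came from DNAscent forkSense 4.0.1 or 4.0.3. The deposited values used were coordinates in bp and molecule names (other values), with no counts or scores. The gradient file gave start, end and molecule for each origin call.

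Midpoints, widths and distances were computed with Python 3.11.15, numpy 2.4.6, pandas 2.3.3 and scipy 1.17.1. Genes are 13922 protein-coding spans, without strand or exons, of a RefSeq table of assembly Release 6 plus ISO1 MT. Arm lengths were taken as its last gene end. Calls on 2L, 2R, 3L, 3R, 4 and X entered positional measures. Shares carry 95% Wilson intervals, medians order-statistic intervals, and a count of 0 a limit of 3 counts. Sign-flip and permutation tests were exact, and the counting was tested on simulated positions.

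Named genes follow a rule: the 5 molecules with most calls, 10 recurrent loci, up to 8 calls with origins of most pulse libraries and up to 4 members of a list. The members, lists and tests were chosen with earlier results of these data known.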

Additional observations from a re-analysis of the deposited data

Results flagged for a closer look

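The difference in fork divergence between clustered calls and calls alone had opposite signs in replicates 3 and 4 (3 and 6 min) and in replicates 1 and 2 (7 and 15 min). It was 1.09 points in replicate 3 and 1.58 points in replicate 4, against -3.46 points in replicate 1 and -1.06 points in replicate 2, and the means of these pairs lay 3.59 points apart. This difference was not tested. The untreated control, another library labelled for 7 and 15 min that is not in these means, had a value of 0.743 points, so the 7 and 15 min libraries held both signs.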

How the results depend on the processing

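Fork length kept a positive sign under 13 alternatives and fork number a negative sign under 13, the latter between -1.12 and -0.07 on the log2 scale. The fork length difference was 0.0318 ± 0.0292 with 3 or more calls and 0.0210 ± 0.0123 within 50 kb (SD, n = 5). Both exceeded their SD at the smallest exact sign-flip p of 0.063, unadjusted. Over all its alternatives this p ran from 0.063 to 0.375. The signs of the other pulse measures did not hold. The difference in pulse origins (-0.0950 points) became 0.266 with 3 or more calls on a molecule, 0.0766 with calls under 5 kb apart merged, 0.170 at 2 kb, and 0.0758 without the arm segment next to the centromere. Leaving out 1 library each gave -0.499 to 0.322, and it was positive without the 7 and 15 min replicate 2 or the 3 and 6 min replicate 4. For terminations (0.245) it became -0.0619 with calls of 5 kb or less, -0.184 with merging, -0.108 at 2 kb and -0.0319 at 10 kb, and leaving out 1 library each gave 0.0867 to 0.579. For fork divergence (-0.221) it became 0.212 with 3 or more calls, 1.64 with calls of 5 kb or less, 0.416 without chromosome 4 and 1 Mb at the arm ends, and 1.64 within 10 kb. Leaving out 1 library each gave -0.672 to 0.588, positive without the 7 and 15 min replicate 1. The cause was not tested. No p under these alternatives was below 0.063. The centromere, outer-flank (-2.18 points) and per-Mb alternatives were chosen after seeing the data.

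The median distance was 6.52 kb as a gap and 12.0 kb with merging, by construction. The median width was 1.59 kb with each molecule weighted equally. The share near gene ends was 34.7% within 2 kb and 21.8% with 3 or more calls. The tests pair clustered calls and calls alone within each pulse library. No paired analysis was possible by replicate number because the labelling groups share fewer than 2 numbers.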

Other observations

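Pulse forks within 20 kb of clustered calls ran rightward on the reference more often than those near calls alone, on both sides of the calls. Of the forks near clustered calls, 53.0% ± 3.11 were rightward, against 48.5% ± 0.864 near calls alone (SD, n = 5). The difference of 4.49 ± 2.79 points was positive in 4 of 5 libraries and -0.294 points in the 3 and 6 min replicate 3. It was noticed in these data and then tested on them, with an exact two-sided sign-flip p of 0.125, unadjusted. Over all forks of a library, 48.7 to 50.9% were rightward.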
